A study of Homo sapiens with 17 samples.

Results

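Gene expression was followed in clone c6 of the MYCN-amplified human neuroblastoma line IMR32, over a long induction that ended at time 120. The clone carried a doxycycline-inducible construct for NOTCH3IC, the intracellular domain of the receptor NOTCH3, and doxycycline was added to the medium, with 1 array hybridised per labelled time. The 6 arrays compared were chosen by clone and labelled time: 72, 96 and 120 against 0, 4 and 8. They are 6 of the 17 arrays of the series, and 3 further arrays of the same clone, at times 12, 24 and 48, gave the course in between. Clone c8, a second clone with the same construct, was sampled at times 0 to 96 and served as a comparison with 5 arrays (72 and 96 against 0, 4 and 8). Times carry no unit in the labels and are printed in that form. All cells were grown in DMEM with 10% fetal calf serum, and all, at time 0 too, carried the construct. No culture kept without doxycycline after time 0 was included, so time in culture, doxycycline and NOTCH3IC cannot be told apart in any comparison. Clone c6 is 1 clone of 1 line, and whether each time was a separate culture is not stated, so neighbouring times stand in as replicates and p-values reflect only how much these arrays scatter.

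Notch receptors are cut when they meet a ligand on a neighbouring cell, and the freed intracellular domain enters the nucleus. There it joins the DNA-binding protein RBPJ and a MAML coactivator and switches on genes such as the HES and HEY repressors. NOTCH3 is best known from vascular smooth muscle cells and pericytes, the contractile cells of vessel walls. Neuroblastoma arises from the sympathetic lineage, and its cells are described in an adrenergic, neuroblast-like state and in a mesenchymal state.

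The arrays carried deposited intensities on a linear scale, and precision is limited by how few arrays there were. Median intensities of the 9 arrays of clone c6 lay between 14.6 and 19.3. The ratio of 3' to 5' probe sets, a measure of RNA integrity, lay between 0.997 and 1.12 for GAPDH and between 1.22 and 1.49 for ACTB over the same 9 arrays. Defining genes of the line differed in level and course. MYCN averaged 4983 at times 72, 96 and 120 and 4733 at times 0, 4 and 8, and GATA3, a sympathetic transcription factor, 3744 and 3916. In the same order, TUBB3 averaged 2192 and 2530, ELAVL4 1129 and 983, CHGA 907 and 1087, ISL1 356 and 239 and HAND2 121 and 115. PHOX2A averaged 674 and 1365, DBH 16.8 and 204 and CHGB 61.3 and 67.6. STMN2, a neuronal marker, was dim, with means of 26.8 and 3.33 in the same groups. Of the measured markers of other cell types, none of 9 Schwann cell, 10 endothelial, 7 haematopoietic and 10 epithelial genes passed an intensity of 100 on any of the 6 arrays, and their highest values were 29.9, 39.8, 39.5 and 43.2. The summed intensity of 12 fibroblast markers was 7460 to 10340 at times 72 to 120 and 1165 to 1437 at times 0 to 8, and 6 of the 12 passed 100. Most of the late sum was COL3A1, with up to 6790.3 at times 72 to 120 and at most 39.4 at times 0 to 8. PDGFRA, a bright member, had at most 684 at the late times and 880 at the early ones. COL1A2, FAP, DPT, TCF21 and PDPN, which also mark fibroblasts, stayed at or below 19.0 on all 6 arrays. In bulk RNA, fewer cells of a type and less RNA per cell cannot be told apart, and the part of other cells in these results was not tested.

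At the end of the course 1227 of 13675 genes differed from the start by limma at an adjusted p under 0.05 (8.97% of the genes tested). Of these, 782 were higher (5.72%) and 445 lower (3.25%), while centring each array on its median gave 565 higher and 563 lower. Changes of 2-fold or more were mostly rises: 353 genes rose (2.58%) and 43 fell (0.314%) by that much, 103 rose and 2 fell 4-fold or more, and 29 rose 8-fold or more. The 3 arrays of times 72 to 120 lay outside the 3 of times 0 to 8 for 780 of the 782 risen and 444 of the 445 fallen genes, and for 27.8% of all genes tested (14.3% above and 13.5% below). Changes are given on the log2(intensity + 16) scale with the standard error of the fit over 6 arrays. This scale understates the change of dim genes, and 101 of the 782 risen genes were below 16 on all 3 arrays of times 0, 4 and 8. Of the fibroblast markers kept by the filter 5 of 8 rose (median log2 change 1.17), and of the 3 Schwann cell, 2 endothelial, 3 haematopoietic and 3 epithelial markers kept none passed. With time 0 alone as the start 1 Schwann cell marker did: NGFR, a neurotrophin receptor, had 24.9, 28.5 and 29.7 at times 72, 96 and 120, against 1.6 at time 0 (log2 1.31 ± 0.26, limma adjusted p = 0.0118), and it also passed without time 8 (limma adjusted p = 0.00327). Leaving out time 96 lowered the count of all genes to 687 and leaving out time 120 to 679.

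The largest rises were those of a fibrillar collagen, of smooth muscle and pericyte genes and of a Notch ligand. COL3A1, which encodes the collagen of distensible tissues, had intensities of 5429, 6491 and 6790.3 at times 72, 96 and 120, against 8.4, 13.0 and 39.4 at times 0, 4 and 8. The groups lay far apart, and the fold change was 183 (log2 7.52 ± 0.23, limma adjusted p = 1.56e-09). ACTA2, smooth muscle actin, had 4732, 7632 and 7076 at times 72, 96 and 120, against 45.9, 26.0 and 60.7 at the start (log2 6.77 ± 0.21, limma adjusted p = 1.56e-09). Among the falls, DBH, the enzyme that makes noradrenaline from dopamine, had 35.0, 3.9 and 11.5 at times 72, 96 and 120, against 192, 187 and 231 at times 0, 4 and 8. None of its late arrays reached the lowest early one (log2 -2.85 ± 0.27, limma adjusted p = 1.58e-05). The plot of single genes over all 9 times shows these courses.

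**Figure D1:**
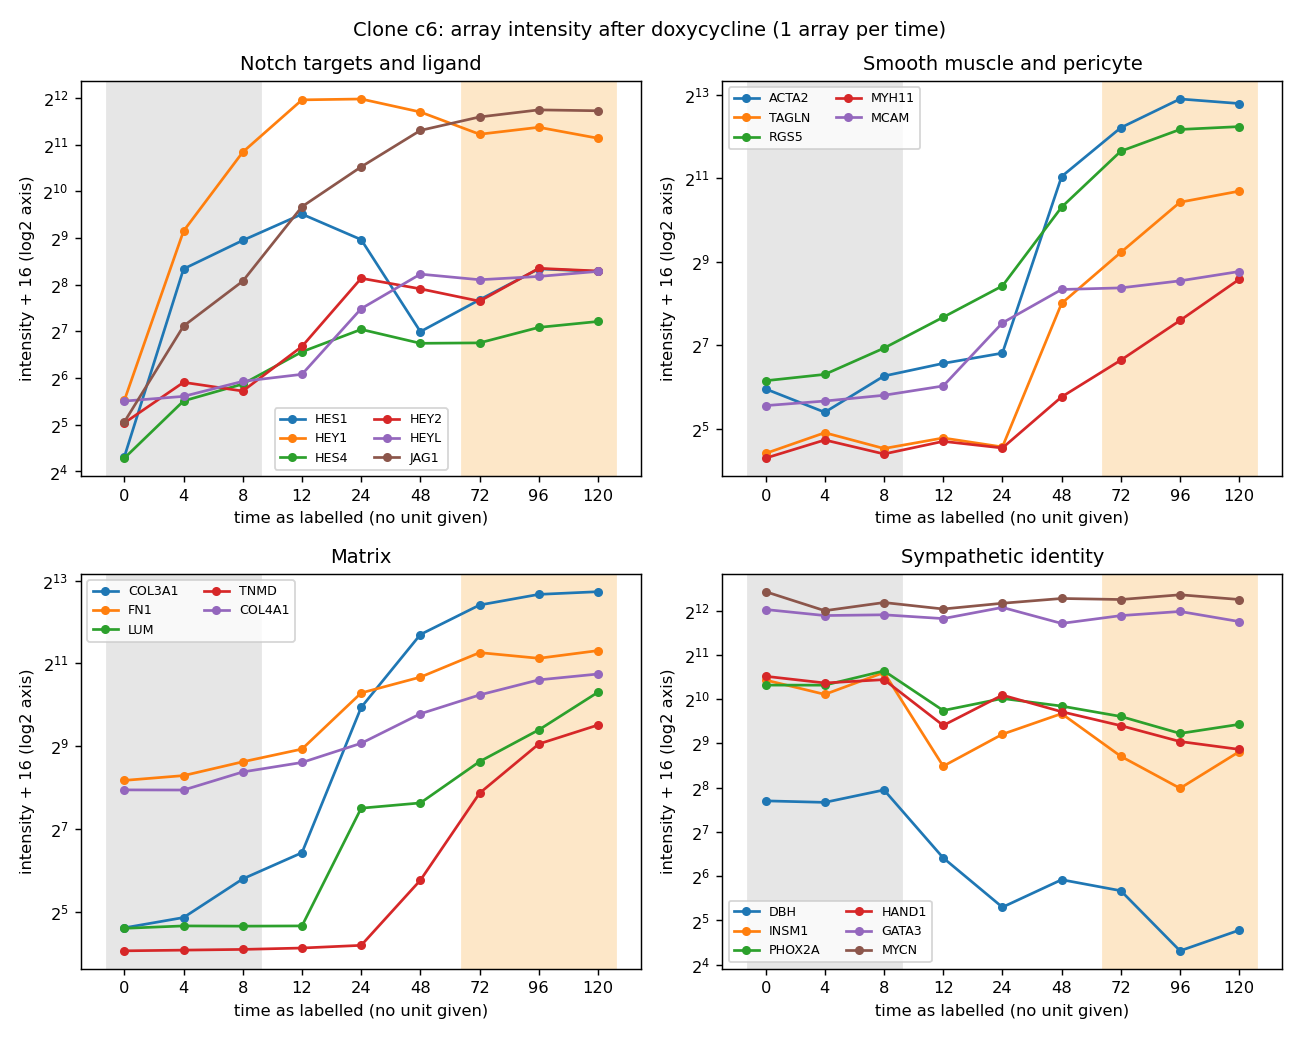
Array intensity plus 16 (log2 axis) of named genes in clone c6 at each labelled time, 1 array per point, in 4 panels; the orange band marks times 72, 96 and 120 and the grey band times 0, 4 and 8. HES1 and HEY1 were already high at time 4, and GATA3 and MYCN kept their level. TAGLN left its starting level between times 24 and 48. ACTA2 had covered 12.8% of its log2 change from time 0 by time 24 and 76.2% by time 48.

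NOTCH3 itself, the receptor whose active domain was induced, had intensities of 425, 393 and 453 at times 72, 96 and 120, against 94.6, 75.2 and 161 at times 0, 4 and 8. All late arrays were above all early ones (log2 1.86 ± 0.20, limma adjusted p = 4.6e-05). Its signal was 205 at time 12, 446 at time 24 and 467 at time 48, so that it stayed between 393 and 467 from time 24 on. The dimmer of its 2 probe sets changed by 0.12 ± 0.18. No source used here says whether either of them reads the construct.

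Of 18 measured Notch target genes, 6 rose (33.3%) and 1 fell (5.56%), against 5.72% and 3.25% of all genes tested. Among the 6 is NOTCH3 itself, and whether its signal reads the construct is not known. The median log2 change was 0.62, against 0.01 over all genes tested. Without time 8, 10 rose. HEY2 and HEYL, repressors of the HEY family, rose by 2.54 ± 0.23 and 2.51 ± 0.15. HEY2 had 185, 311 and 298 at times 72, 96 and 120, against 16.9, 44.1 and 36.8 at the start, without overlap. HES4, a repressor of the HES family, had 92.0, 120 and 132 at times 72, 96 and 120, against 3.5, 29.6 and 42.6 (log2 1.80 ± 0.32, limma adjusted p = 0.00277). The other risen members were NOTCH3, the transcription factor SOX9 (0.71 ± 0.13) and MYC. MYC, the proliferation regulator and relative of MYCN, had 344, 288 and 226 at times 72, 96 and 120, against 1.3, 4.9 and 25.5 at times 0, 4 and 8 (log2 3.60 ± 0.27, limma adjusted p = 2.68e-06). Its highest array was the one at time 48, with 534, and it was lower at each later time. HES6, which counters HES1 in mouse neurogenesis, fell by 1.22 ± 0.15 on the log2 scale.

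The fastest Notch targets were already high at times 4 and 8, and so in both groups. HEY1 had 30.0, 552.8, 1820.5, 3971, 4024, 3314, 2377, 2637 and 2239 over the 9 times from 0 to 120. HES1 had 3.9, 308, 479, 715, 484, 112, 189, 308 and 296 over the same times. HEY1 was highest at time 24 and HES1 at time 12, HES1 had its lowest later value at time 48, and the groups overlapped for HES1 but not for HEY1. Their log2 changes were 2.74 ± 0.89 for HEY1 (limma adjusted p = 0.0811) and 0.90 ± 0.84 for HES1 (limma adjusted p = 0.595). With time 0 alone as the start, the changes were 5.72 ± 0.12 for HEY1 (limma adjusted p = 6.72e-10) and 3.79 ± 0.24 for HES1 (limma adjusted p = 5.07e-06). NRARP, a feedback inhibitor of Notch, gave 0.74 ± 0.22 (limma adjusted p = 0.0606) in the first comparison and 1.40 ± 0.16 (limma adjusted p = 0.000325) from time 0 alone. HES5 stayed dim, at 20, 17.7 and 11 at times 72, 96 and 120 and 1.2, 9.8 and 8.6 at times 0, 4 and 8, with a peak of 42.1 at time 12 (0.53 ± 0.23, limma adjusted p = 0.204).

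The promoters of 3 of these targets are shown as examples with the letters that RBPJ is known to bind. They come from RefSeq (GRCh38.p14) and run from 250 bases before to 50 after the gene's start, 5′ to 3′ on the gene's strand. The windows are chr3:194135898-194136197 (plus strand) for HES1, chr1:1000048-1000347 (minus strand) for HES4 and chr6:125749382-125749681 (plus strand) for HEY2. Capitals mark the motif GTGGGAA, which was searched on both strands, so that it also appears as TTCCCAC. No 2 matches overlapped.
HES1: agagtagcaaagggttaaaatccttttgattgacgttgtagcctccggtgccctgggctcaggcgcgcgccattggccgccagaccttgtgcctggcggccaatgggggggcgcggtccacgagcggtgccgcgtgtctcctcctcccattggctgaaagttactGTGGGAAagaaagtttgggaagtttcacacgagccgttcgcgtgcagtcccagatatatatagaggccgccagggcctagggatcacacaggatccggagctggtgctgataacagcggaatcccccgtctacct
HES4: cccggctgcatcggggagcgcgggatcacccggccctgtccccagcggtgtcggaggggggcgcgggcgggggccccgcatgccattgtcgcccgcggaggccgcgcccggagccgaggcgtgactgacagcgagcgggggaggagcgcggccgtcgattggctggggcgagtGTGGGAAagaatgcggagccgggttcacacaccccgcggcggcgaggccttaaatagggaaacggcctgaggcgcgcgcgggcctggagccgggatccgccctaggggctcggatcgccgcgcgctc
HEY2: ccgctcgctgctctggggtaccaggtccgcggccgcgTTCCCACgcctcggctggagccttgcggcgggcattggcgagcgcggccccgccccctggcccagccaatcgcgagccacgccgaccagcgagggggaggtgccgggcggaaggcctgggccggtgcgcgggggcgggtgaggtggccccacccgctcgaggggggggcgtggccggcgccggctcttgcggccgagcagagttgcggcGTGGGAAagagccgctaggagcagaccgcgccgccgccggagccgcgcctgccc
The first base of the motif lay at position -85 of HES1, at -77 of HES4 and at -213 and -4 of HEY2, counted from the start. The promoters of HEYL (at -178) and HES5 (at -224 and -81), not shown, hold the letters too, and HES5 did not pass the test. The same letters were in 651 of the 11053 tested genes with a promoter in the table (5.89%) and in 16 of 268 such genes with a rise of 2-fold or more (5.97%), so their share among the risen was that of all genes. A match is a description of the letters and not of binding.

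Among 31 Notch receptors, ligands and other parts of the machinery, 4 rose and 4 fell, with a median log2 change of 0.09. JAG1, the ligand that Notch signalling is known to induce in neighbouring cells, had 3077, 3420.3 and 3376 at times 72, 96 and 120, against 17.4, 123 and 254 at times 0, 4 and 8. Its start arrays already climbed, which gave the wide error of its change (log2 4.94 ± 0.51, limma adjusted p = 3.48e-05), and from time 0 alone the change was 6.63 ± 0.11. The coactivators MAML2 (1.56 ± 0.19) and MAML3 (0.64) rose too, MAML3 not when arrays were centred on their medians. Without any 1 of times 4, 96 and 120, or from time 0 alone, 3 genes of the list rose instead of 4. The ligand-like inhibitors DLL3 (-0.96) and DLK1 (-1.26 ± 0.15) fell, as did the Fringe glycosyltransferases LFNG (-0.85) and MFNG (-1.24), which tune how receptors answer to their ligands.

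Smooth muscle and pericyte genes made up the most uniform group, with 18 of 22 measured genes risen, none fallen and a median log2 change of 2.29. TAGLN, transgelin, which binds actin in smooth muscle, had 582, 1361 and 1638 at times 72, 96 and 120, against 5.2, 13.9 and 7.0 at times 0, 4 and 8 (log2 5.50 ± 0.29, limma adjusted p = 1.61e-07). RGS5, a pericyte marker that damps G protein signalling, had 3197, 4594 and 4817, against 54.9, 62.8 and 106 (log2 5.56 ± 0.20, limma adjusted p = 3.73e-09). Both genes were far apart between the groups. Of the 6 RGS5 probe sets 4 changed by 4.77 to 5.56, and the other two by -0.19 and 0.33. MYH11, the smooth muscle myosin heavy chain, had 83.8, 177 and 367 at times 72, 96 and 120, against 3.6, 10.5 and 5.0 (log2 3.13 ± 0.36, limma adjusted p = 7.81e-05).

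MCAM, a surface marker of pericytes, rose by 2.89 ± 0.15, the enteric smooth muscle actin ACTG2 by 3.59 ± 0.27 and the myosin kinase MYLK, which starts contraction, by 3.47 ± 0.30. CARMN, a long noncoding RNA of smooth muscle, rose by 3.59 ± 0.28, and PLN, a regulator of the calcium pump in muscle, by 3.57 ± 0.33. Both were dim at the start: PLN had 102, 235 and 377 at times 72, 96 and 120, against 7.5, 1.0 and 1.5, so much of the size of its change is set by the added 16. MYOCD (1.82), the coactivator that drives smooth muscle genes with SRF, and PDGFRB (1.34), the growth factor receptor of pericytes, were among the other risen members. The count stayed at 18 without time 96, without time 120, with median centring and with time 0 alone as the start, and was 17 when all 9 arrays entered the fit.

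Promoters of 2 of these contractile genes are shown because they hold a CArG box, the element through which SRF is known to act. The windows, from the same RefSeq table, are chr2:73892758-73893057 (plus strand) for ACTG2 and chr3:123620499-123620798 (minus strand) for MYLK, and capitals mark the CArG boxes, searched on both strands.
ACTG2: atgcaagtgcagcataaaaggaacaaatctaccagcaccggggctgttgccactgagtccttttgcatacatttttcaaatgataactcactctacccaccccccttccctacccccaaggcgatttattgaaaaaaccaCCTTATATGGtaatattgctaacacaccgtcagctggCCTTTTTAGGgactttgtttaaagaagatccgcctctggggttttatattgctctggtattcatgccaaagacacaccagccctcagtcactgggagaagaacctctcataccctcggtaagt
MYLK: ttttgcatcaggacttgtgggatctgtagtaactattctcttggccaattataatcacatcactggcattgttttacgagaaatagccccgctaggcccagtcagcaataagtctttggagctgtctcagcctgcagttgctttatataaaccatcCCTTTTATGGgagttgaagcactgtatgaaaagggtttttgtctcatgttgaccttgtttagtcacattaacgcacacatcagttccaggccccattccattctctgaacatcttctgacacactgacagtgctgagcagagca
The boxes began at positions -110 and -73 of ACTG2 and at -94 of MYLK. A CArG box was in 3 of the 15 risen smooth muscle genes with a promoter, in 11 of 268 genes with a rise of 2-fold or more (4.10%) and in 126 of all 11053 (1.14%). No factor's binding was measured here.

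Of 16 measured collagens, 11 rose and 1 fell, with a median log2 change of 1.66. COL4A1, a chain of basement membrane collagen, had 1191, 1538 and 1698 at times 72, 96 and 120, against 230.0, 229.5 and 316 at the start (log2 2.44 ± 0.15, limma adjusted p = 5.29e-07). COL6A1 and COL6A3, chains of the beaded collagen around cells, rose by 1.76 ± 0.13 and 3.14 ± 0.16, and COL6A3 peaked at time 48 with 320 before 172, 155 and 174. COL16A1 fell by 0.67. COL1A1, the main chain of fibrillar collagen I, had 360, 607 and 778 at times 72, 96 and 120 and 391, 312 and 449 at times 0, 4 and 8. These groups overlapped, and the change of 0.53 ± 0.22 did not pass (limma adjusted p = 0.183), but did without time 72 (0.83, limma adjusted p = 0.0101). Without time 96 or without time 120, 10 collagens rose and none fell.

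Of 31 measured matrix glycoproteins and proteoglycans, 15 rose and none fell (median 0.56), and without either of the last 2 arrays 12 rose. FN1, fibronectin, which cells grip through integrins, had 2437, 2214 and 2521 at times 72, 96 and 120, against 272, 297 and 378 (log2 2.87 ± 0.12, limma adjusted p = 2.42e-08). LUM, lumican, a proteoglycan that spaces collagen fibrils, had 379, 656 and 1248, against 8.2, 9.2 and 9.1 (log2 4.81 ± 0.30). TNMD, tenomodulin, known from tendon, had 217, 515 and 713, against 0.6, 0.8 and 1.0 (log2 4.74 ± 0.31). Both were higher at each step from 72 to 120 and at or below 9.2 at the start. LAMC1, a laminin chain of basement membranes, rose by 1.54 ± 0.12.

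Enzymes that process or remodel matrix rose in 10 of 28 cases and fell in 1 (median 0.23), and in 5 and 0 cases without time 72, without time 96 or without time 120. Without time 4 or with median centring, 5 rose and 1 fell. ADAMTS2, which trims procollagen, rose by 2.11 ± 0.19, the plasminogen activator PLAT by 1.62 ± 0.18, the aggrecanase ADAMTS5 by 1.28 ± 0.20 and the procollagen proteinase BMP1 by 1.19 ± 0.16. TIMP2, a metalloproteinase inhibitor, fell by 0.37.

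Of 39 integrin and focal adhesion genes, 15 rose and none fell (median 0.39). ITGA1, the collagen-binding integrin chain, had 990.4, 1187 and 1425 at times 72, 96 and 120, against 190.3, 164 and 96.9 (log2 2.90 ± 0.20, limma adjusted p = 1.23e-06). ITGA9, an integrin chain that binds tenascin, rose by 2.13 ± 0.19, PDLIM5, a scaffold on actin fibres, by 1.94 ± 0.18 and CSRP2, a LIM protein of smooth muscle, by 1.28 ± 0.11. The late arrays of each of these genes were all above its early ones.

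Actin cytoskeleton genes were mixed, with 8 of 34 risen, 1 fallen and a median of 0.08. ACTN1, which bundles actin, rose by 1.73 ± 0.22, the myosin chain MYH9 by 0.97 ± 0.17, the GTPase RHOC by 0.92 ± 0.18 and tropomyosin TPM4 by 0.86 ± 0.14. The TPM4 probe set next in brightness (mean intensity 121, against 188) changed by 0.005 ± 0.14, and a dimmer one by 0.53 ± 0.22. The formin DIAPH1 fell by 0.51, but no gene of the list fell without time 72 or without time 96. Without time 96 or without time 120, 5 of the list rose.

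Guidance and chemokine genes, which steer moving cells and axons, rose in 12 of 34 cases and fell in 1 (median 0.51). UNC5C, a netrin receptor, had 210, 368 and 467 at times 72, 96 and 120, against 11.6, 23.6 and 25.8 (log2 3.28 ± 0.25, limma adjusted p = 2.68e-06). CXCL12, the ligand of CXCR4, had 774, 1009 and 1157, against 148, 231 and 462 (log2 1.87 ± 0.29, limma adjusted p = 0.000981), and was already climbing at time 4. The ephrin receptor EPHA3 rose by 2.11 ± 0.20, its family's ligand EFNB2 by 1.50 ± 0.15 and the semaphorin co-receptor NRP1 by 1.50 ± 0.13, while its relative NRP2 fell by 0.97. S1PR3, a receptor for the lipid sphingosine-1-phosphate, rose by 3.63 ± 0.14.

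Of 19 cadherins and other cell adhesion genes, 9 rose and 1 fell (median 0.37). CDH6 and CDH11, cadherins of mesenchymal and early neural crest cells, rose by 2.83 ± 0.25 and 2.24 ± 0.13. CDH11 had 853, 950.3 and 1043 at times 72, 96 and 120, against 162, 194 and 211, and its groups were well apart. CDH7, a cadherin of migrating neural crest in the chick, fell by 1.52 ± 0.20 and had 58.2, 71.1 and 36.7, against 154, 238 and 171.

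Mesenchymal surface and cytoplasmic markers rose in 14 of 19 cases and fell in 1 (median 1.09). LGALS1, galectin-1, had 297, 411 and 520.0 at times 72, 96 and 120, against 13.7, 14.4 and 30.3 (log2 3.58 ± 0.21, limma adjusted p = 3.71e-07). S100A4, a calcium-binding protein of motile fibroblasts, rose by 2.93 ± 0.19 and the membrane protein IFITM2 by 2.64 ± 0.18. ANXA2, an annexin, fell by 0.42, but no gene of the list fell without any 1 of times 4, 8, 72, 96 and 120, or from time 0 alone. VIM, the vimentin of intermediate filaments, was bright throughout. It had 6445, 7559 and 6257 at times 72, 96 and 120, against 4820, 5467 and 5799. Its change of 0.33 ± 0.10 did not pass (limma adjusted p = 0.0531). It passed in 4 of 18 alternative settings, among them without time 8 (limma adjusted p = 0.0353). From time 0 alone its change was 0.48. IFITM1, IFITM2 and IFITM3 are also 3 of the 5 risen among 18 interferon-stimulated genes, of which 2 fell, USP18 by 1.11 ± 0.15 and IFI44 by 0.62.

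Of 17 measured mesenchymal transcription factors 4 rose and 1 fell (median 0.19). MRTFB, an actin-sensing partner of SRF, had 1809, 1687 and 1758 at times 72, 96 and 120, against 370.3, 310 and 339 (log2 2.31 ± 0.10, limma adjusted p = 3.27e-08). SNAI2, a repressor that neural crest cells use when they leave the epithelium, had 1053, 1186 and 1029, against 529, 608 and 830.2, which do not overlap (log2 0.74 ± 0.15, limma adjusted p = 0.00592). TWIST1, another such factor, had 537, 508 and 475, against 824, 793 and 858 (log2 -0.69 ± 0.10, limma adjusted p = 0.00075). SOX9 and FOSL2 (0.67) were the other risen members.

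The share of each list that passed the test is drawn beside that of all genes.

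**Figure D2:**
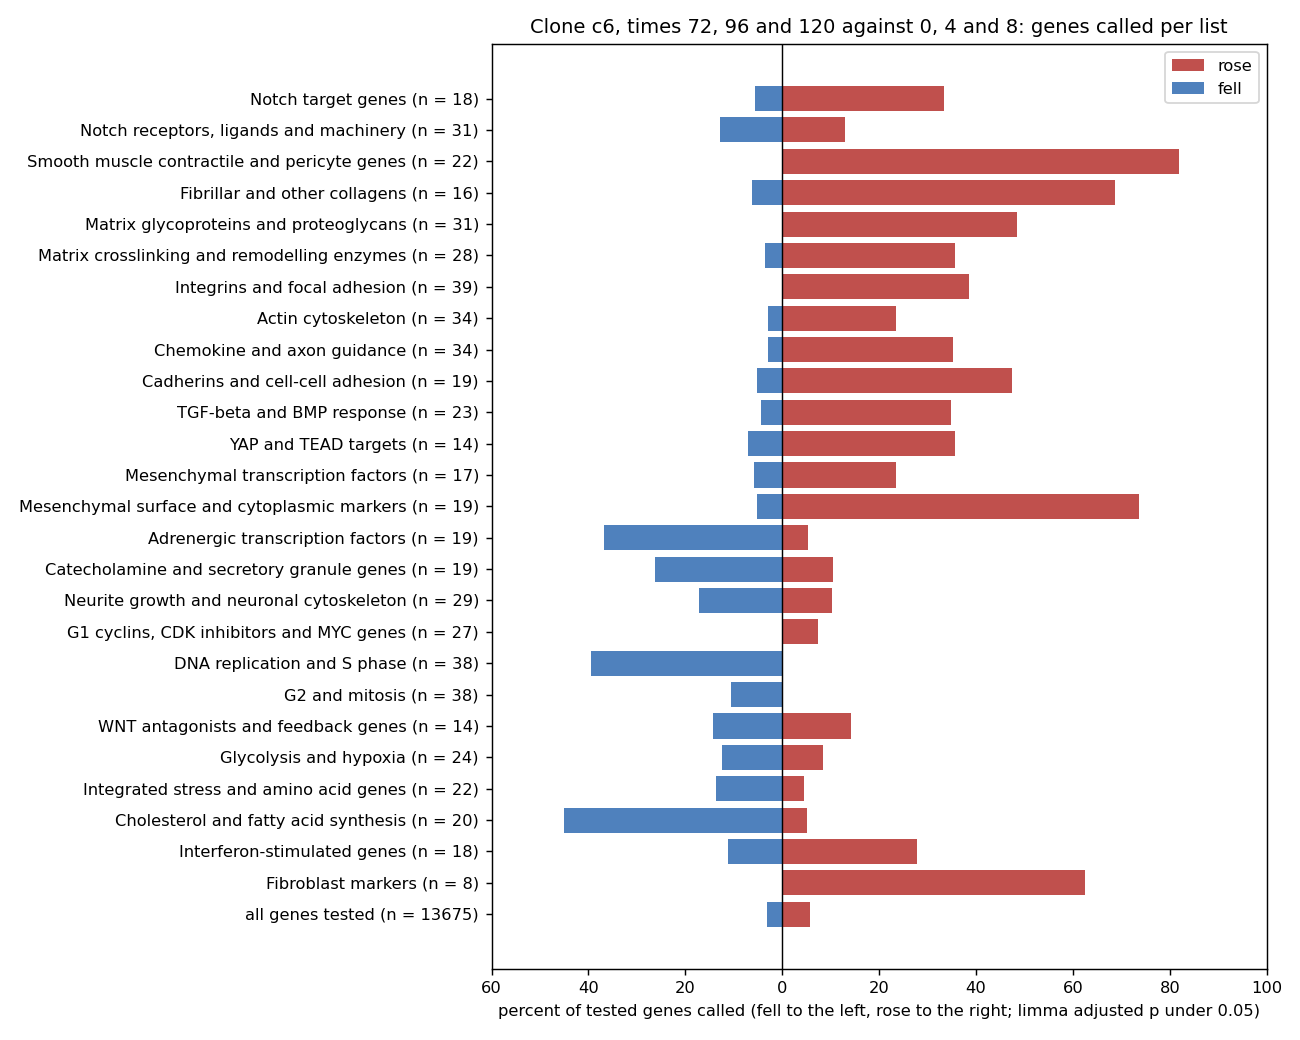
Percent of the tested genes of each list that rose (right, red) or fell (left, blue) in clone c6 at times 72, 96 and 120 against 0, 4 and 8, by limma at an adjusted p under 0.05; n is the number of tested genes, and the lowest bar is all genes tested. Smooth muscle genes, collagens and mesenchymal markers had the longest bars to the right, and cholesterol synthesis, S phase and adrenergic factors those to the left.

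The TGF-beta and BMP list had 8 of 23 genes risen and 1 fallen (median 0.37). TMEM100, a membrane protein induced by BMP signalling in mouse endothelium, rose by 3.94 ± 0.25, ID4 and ID3, inhibitors of basic helix-loop-helix factors, by 2.43 ± 0.12 and 2.13 ± 0.16, and the receptor TGFBR2 by 2.32 ± 0.22. ID3 had 942, 1108 and 773 at times 72, 96 and 120, against 165, 193 and 253, and had reached 778 at time 12. The co-receptor TGFBR3 fell by 0.73, but no gene of the list fell without any 1 of times 8, 72, 96 and 120, or from time 0 alone.

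Of 14 targets and parts of the YAP pathway, which reads stretch and cell shape, 5 rose and 1 fell (median 0.22), and 3 rose without time 4, without time 96 or without time 120. CCN1, a matricellular protein, had 512, 553 and 664 at times 72, 96 and 120, against 58.8, 57.3 and 85.0 (log2 2.84 ± 0.15, limma adjusted p = 1.65e-07). It was at 65.4, 74.0 and 142 at times 12, 24 and 48, and had covered 36.3% of its log2 change from time 0 by time 48. CCN2 (2.43 ± 0.25) and YAP1 itself (0.77 ± 0.15) rose as well, and F3, tissue factor, fell by 1.02 ± 0.20. Among 14 WNT antagonists and feedback genes, SFRP1 (2.06 ± 0.12) and DKK1 (1.51 ± 0.21), secreted WNT inhibitors, rose, and KREMEN1 (-1.20 ± 0.14) and ZNRF3 (-1.21 ± 0.17), which remove WNT receptors from the surface, fell.

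Transcription factors of the adrenergic state fell in 7 of 19 cases and rose in 1, with a median of 0.00, so the list was split between falling and level members. INSM1, a zinc finger factor of neuroendocrine cells, had 403, 238 and 434 at times 72, 96 and 120, against 1365, 1087 and 1538 (log2 -1.88 ± 0.19, limma adjusted p = 3.33e-05). HAND1, a factor of the sympathetic lineage, had 660.1, 511 and 450.4, against 1449, 1303 and 1374 (log2 -1.34 ± 0.13). PHOX2A, which sets the noradrenergic fate, had 765, 583 and 674, against 1260, 1259 and 1577 (log2 -1.0 ± 0.13, limma adjusted p = 0.00019). No late array of these 3 genes reached an early one.

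EYA1 fell by 0.91 ± 0.11, and TBX2 was the 1 that rose (0.70). GATA3 had 3771, 4026 and 3435 at times 72, 96 and 120, against 4151, 3776 and 3820.4, and HAND2 122, 129 and 111, against 96.7, 123 and 126. Both overlapped between the groups (log2 -0.07 ± 0.09 and 0.06 ± 0.14, limma adjusted p = 0.733 and 0.855). GATA2 gave 0.85 ± 0.29 (limma adjusted p = 0.0998), and 1.75 ± 0.20 from time 0 alone (limma adjusted p = 0.000273), since times 4 and 8 were already high. MYCN had 4857, 5232 and 4858, against 5493, 4075 and 4633, with overlap (log2 0.08 ± 0.10, limma adjusted p = 0.71).

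Of 19 genes of catecholamine synthesis and secretory granules, 5 fell and 2 rose (median -0.22), and 3 fell without any 1 of times 4, 72, 96 and 120. Besides DBH, the noradrenaline transporter SLC6A2 fell by 1.20 ± 0.21 and the neuropeptide GAL by 0.87 ± 0.14. SCG2, secretogranin II of the granule core, had 396, 342 and 313 at times 72, 96 and 120, against 123, 101 and 112, and so went the other way (log2 1.51 ± 0.13, limma adjusted p = 8.64e-06). Among 29 genes of neurite growth and the neuronal cytoskeleton, 3 rose and 5 fell (median -0.04), and 3 of each without time 4, without time 96 or without time 120. GAP43, a growth cone protein, rose by 1.48 ± 0.15 and the microtubule protein MAPT by 1.48 ± 0.22, and the RNA-binding protein ELAVL2 fell by 0.67 ± 0.11 and the membrane protein GPM6A by 1.01 ± 0.15.

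The other large falls were in none of these lists. CKM, muscle creatine kinase, had 57.2, 39.9 and 26.5 at times 72, 96 and 120, against 219, 255 and 261 (log2 -2.22 ± 0.19, limma adjusted p = 5.8e-06). NPTX1, a synaptic pentraxin, fell by 1.92 ± 0.19, CLSTN2, a synaptic cadherin relative, by 1.89 ± 0.14, the growth factor receptor FGFR2 by 1.54 ± 0.16, the acetylcholine receptor chain CHRNA1 by 1.40 ± 0.26 and GLI3, a factor of the hedgehog pathway, by 1.40 ± 0.16. STC1, a secreted glycoprotein, had 43.5, 37.0 and 33.3 at times 72, 96 and 120, against 307, 106 and 55.9, so that most of its drop came by time 8 (log2 -1.39 ± 0.39, limma adjusted p = 0.0408). Its call was lost without any 1 of times 4, 72, 96 and 120, and from time 0 alone the change was -2.58 ± 0.20. Of the 15 largest rises, 4 were in none of the lists: CARMN, S1PR3, OLFML2A (4.50 ± 0.15), a matrix protein of the olfactomedin family, and PLXDC1 (3.73 ± 0.16), a surface protein of vessel cells, which peaked at time 48 with 363 and stood at 256, 217 and 220.4 later.

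DNA replication and S phase genes fell in 15 of 38 cases and rose in none, with a median of -0.33. MCM7, a subunit of the replication helicase, had 1149.5, 956 and 1016 at times 72, 96 and 120, against 1691, 1504 and 1524 (log2 -0.59 ± 0.10, limma adjusted p = 0.00247). TYMS, which makes thymidylate, had 2166, 1981 and 2239, against 3013, 2786 and 2808 (log2 -0.43 ± 0.09, limma adjusted p = 0.00802), a call that was lost without time 96. The groups did not overlap in either gene, but the changes were small. The count rested on single arrays: it was 1 without time 96, 2 without time 120, 5 without time 0, 8 without time 72, 9 without time 4 and 23 without time 8, and 1 with all 9 arrays in the fit. The medians of these settings lay between -0.28 and -0.39.

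Of 38 genes of G2 and mitosis, 4 fell and none rose (median -0.36), among them the proliferation marker MKI67 (-0.44 ± 0.11, limma adjusted p = 0.0219) and the mitotic survivin BIRC5 (-0.55 ± 0.10). Centring on array medians gave 11 falls, leaving out time 96 or time 120 gave 1, and leaving out time 0 gave 16. The MKI67 call was lost in 8 of 18 settings, among them without time 4, without time 96 or without time 120. From time 0 alone its change was -0.35. The median of the mitotic genes lay 0.39 above time 0 at time 8, which is in the early group. With time 0 alone as the start their median change was -0.145. The low point of both lists was earlier: relative to time 0 the median log2 value of the S phase genes was -0.70 at time 12, -1.01 at time 24, -0.35 at time 48 and -0.49 at time 120, and that of the mitotic genes -1.07 at time 24 and -0.13 at time 120. MKI67 followed this course, with 653 at time 0, 200 at time 24 and 499 at time 120. Of 27 genes of the G1 phase, MYC and MXI1 (0.50 ± 0.13), an antagonist of MYC, rose (7.41%, near the 5.72% of all genes tested) and none fell. The MXI1 call was lost without any 1 of times 0, 72, 96 and 120. With time 0 alone as the start, 3 G1 genes rose and 4 fell, and 2 fell without time 4 or without time 8. CCND1, cyclin D1, had 1040.2, 974 and 1114 at times 72, 96 and 120 and 1443, 1040.4 and 785 at times 0, 4 and 8, with overlap (-0.02 ± 0.17, limma adjusted p = 0.967), and from time 0 alone it fell by 0.46 ± 0.11 (limma adjusted p = 0.0275).

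**Figure D3:**
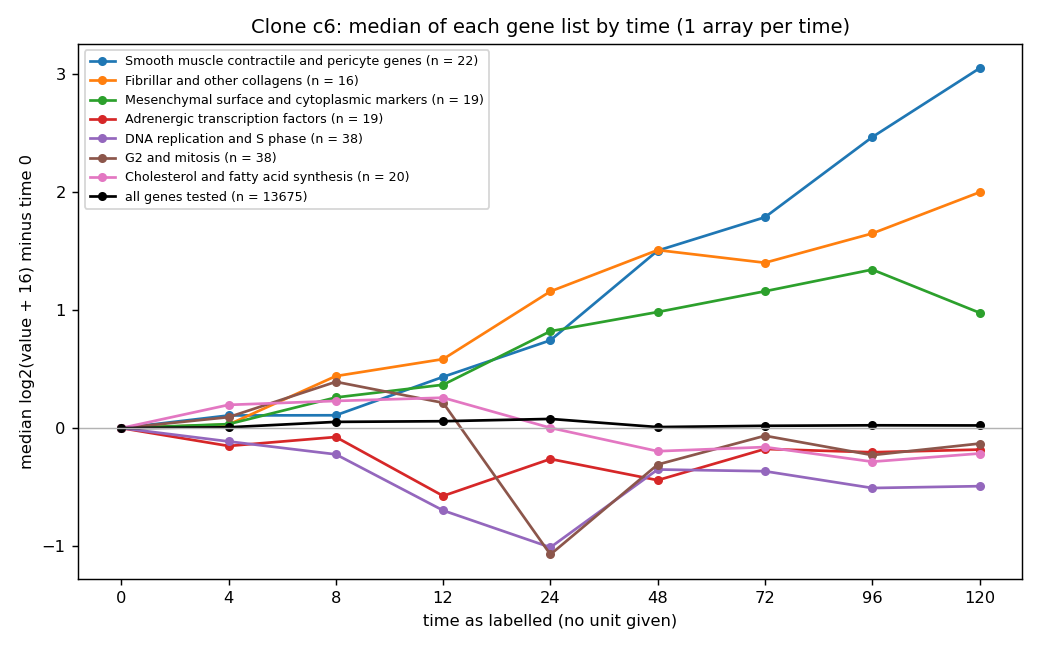
Median over the genes of each list of log2(intensity + 16) minus the value at time 0, in clone c6 by labelled time, 1 array per time. The smooth muscle median climbed to 3.04 at time 120, the S phase and mitosis medians were lowest at time 24 (-1.01 and -1.07), and the median of all genes tested stayed near 0.

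The 353 genes that rose 2-fold or more were followed over all 9 arrays as a percent of their change from time 0 to the mean of times 72, 96 and 120. Since these genes were chosen by that change, the course is a description. The median gene had covered 1.69% at time 4, 8.48% at time 8, 29.8% at time 12, 73.1% at time 24 and 89.0% at time 48. At times 72, 96 and 120 it stood at 89.4%, 102% and 109%. The 43 fallen genes had covered 55.9% at time 12 and 76.1% at time 24, stood at 67.6% at time 48 and reached 84.3%, 105% and 105% at the last 3 times.

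Genes were classed by the time from which they stayed past 50% of their change. Of the risen, 1 was past it from time 4, 9 from time 8, 89 from time 12, 131 from time 24, 78 from time 48, 41 from time 72 and 4 from time 96. GPR155, a lysosomal membrane protein, was the gene of time 4, with 161 there, against 82.1 at time 0. The largest rises of the class of time 8 were CXCL12, HES4 and the protocadherin PCDH18 (1.64 ± 0.28), and those of time 12 JAG1, MYC and IGFBP3, which binds insulin-like growth factors (3.47 ± 0.19). COL3A1, LUM and TMEM100 led the class of time 24, and ACTA2, RGS5 and TAGLN that of time 48. TAGLN was at 7.6 at time 24 and at 240.4 at time 48.

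TNMD, of the matrix list, and the smooth muscle genes PLN and MYLK were the largest rises past 50% only from time 72: MYLK had 238 at time 24, 320.1 at time 48, 681 at time 72 and 2136 at time 120. The class of time 96 held COL14A1, a collagen on the surface of fibrils (1.74 ± 0.35), ADRA1A, an adrenaline receptor of smooth muscle (1.52 ± 0.34), CSRNP3 (1.22 ± 0.25), a nuclear protein, and GRP, gastrin-releasing peptide (1.12 ± 0.30), as its 4 genes. The ADRA1A call was lost without time 96 or without time 120. From time 0 alone, which leaves 1 array at the start, COL14A1 (1.53), ADRA1A (1.40) and CSRNP3 (0.80) did not pass. The same held for the fallen gene CHRNA1 (-1.10). Of the 43 fallen genes, 1 was past 50% from time 4 (STC1), 2 from time 8 (NANOS1, an RNA-binding protein, and HSPA12A, a heat shock protein relative), 14 from time 12 (led by GLI3, MTSS1 and HES6), 11 from time 24 (DBH, NPTX1 and CLSTN2), 8 from time 48 (CKM, HAND1 and LHX9), 6 from time 72 (INSM1, NWD2 and USP18) and 1 from time 96 (CHRNA1).

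**Figure D4:**
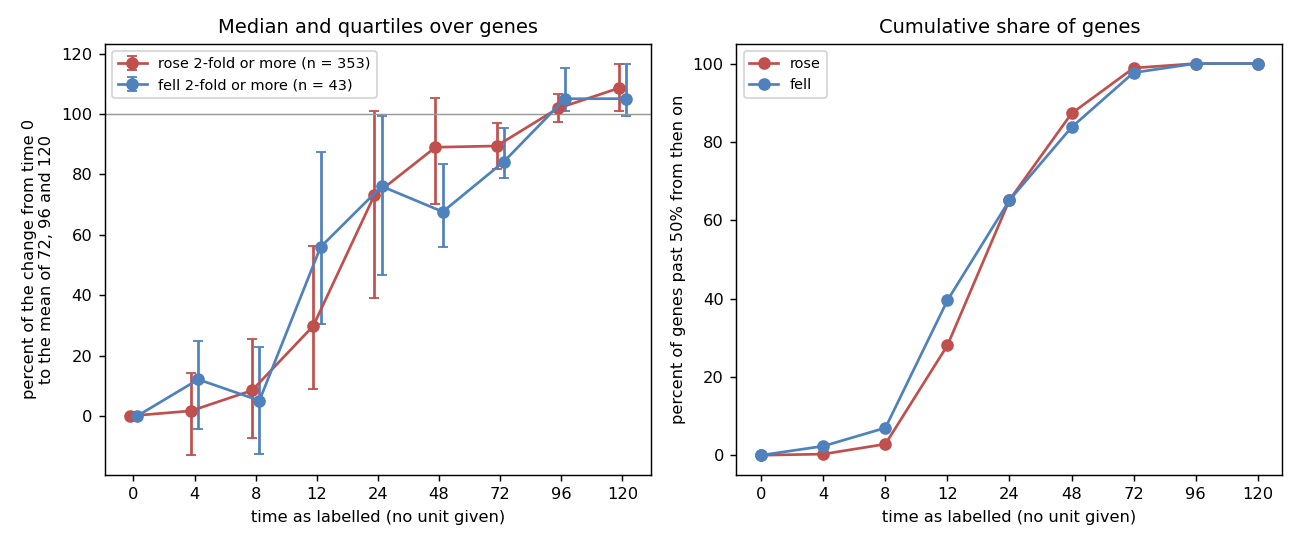
Left, median and quartiles over genes of the percent of the change from time 0 to the mean of times 72, 96 and 120 covered at each labelled time in clone c6, for the 353 genes that rose and the 43 that fell 2-fold or more. Right, the cumulative percent of these genes that stayed past 50% from each time on; the median risen gene went past 50% between times 12 and 24.

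Further genes had their highest or lowest values in the middle of the course. In 217 genes (1.59% of those tested) all 3 arrays of times 12, 24 and 48 lay above all 6 arrays of the 2 groups, and in 91 (0.665%) below them. COL4A4, a collagen chain of specialised basement membranes, had the largest gap, with 218, 479.6 and 164 at times 12, 24 and 48, against 104, 101 and 91.1 at times 72, 96 and 120 and 3.2, 13.3 and 92.6 at times 0, 4 and 8. CHRNA9, an acetylcholine receptor chain, had 82.2, 173 and 157 in the middle, 52.8, 33.8 and 28.3 at the last times and 20.4, 21.2 and 31.9 at the first. The matrix protein TNN, the transcript LOC101927040 and the dim ACTL10 followed by size of gap, and LOC101927040 was at 433 at time 24 and 75.6 at time 120. The gaps of the genes below were smaller, at most 0.29 on the log2 scale (GDAP2, with 52.0, 34.0 and 47.8 in the middle), followed by SECTM1, FYB2, TRPM2 and ZFYVE9 at 0.14 to 0.20. These genes were picked by the pattern described, so it was not tested. COL4A4 (1.54 ± 0.45, limma adjusted p = 0.053) did not pass between the last and first arrays, but did from time 0 alone (2.57 ± 0.20, limma adjusted p = 2.06e-05) and without time 8, and LOC101927040 was also a risen gene (2.28 ± 0.22, limma adjusted p = 1.88e-05).

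Whether expression still moved at the end was asked by setting time 120 against times 72 and 96. No gene passed by limma (0 of 13675, 0%, smallest adjusted p = 0.564). An unadjusted p under 0.05 was found for 352 genes, fewer than the 684 expected by chance. By size, 21 genes were 2-fold or more higher at time 120 and 19 lower. The largest differences above were those of COL14A1 (1.51 ± 0.33), MYH11 (1.46 ± 0.35), LUM (1.29 ± 0.28), the pseudogene NACA4P (1.27 ± 0.20) and CRYAB, a small heat shock protein of muscle (1.23 ± 0.51). CRYAB had 374 at time 120, against 90.9 and 244 at times 72 and 96, and NACA4P, a copy that can share signal with its parent gene, had 2482, against 1099 and 944. The largest below were RAC3 (-1.56 ± 0.35), PTK6 (-1.30 ± 0.45), TMEM184A (-1.26 ± 0.35), RSPH6A (-1.22 ± 0.32) and CCDC88B (-1.21 ± 0.33), each under 8 at time 120 and dim before. The test rests on a single array at time 120, which is assumed to vary like the others.

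The genes that had risen over the course tended to be highest on the last array. Of the 353, 178 (50.4%) had their highest value of all 9 arrays at time 120, 57 at time 96, 13 at time 72, 55 at time 48 and 49 at time 24. Time 120 lay above both 72 and 96 in 224 of them (63.5%), against 36.9% of all genes tested, and 195 (55.2%) were higher at each step from 72 to 96 to 120, against 19.1% of all genes. Of the 43 fallen, 14 (32.6%) were lower at each step, against 16.8% of all genes. These shares describe genes that were chosen with the same 3 arrays.

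In clone c8, 616 genes passed when times 72 and 96 were set against 0, 4 and 8 (4.5% of those tested; 480 higher, 3.51%, and 136 lower, 0.995%), by limma over 10 arrays of both clones. Among the 353 genes with 2-fold or larger rises in clone c6, 350 were higher in clone c8, 277 passed there in the same direction and 237 reached 2-fold, with median log2 changes of 1.56 (clone c6) and 1.25 (clone c8). Of the 43 that fell 2-fold or more, all were lower in clone c8, 23 passed and 13 reached 2-fold, with medians of -1.21 and -0.75. Over all 782 risen genes of clone c6, 389 (49.7%) passed in clone c8, and over the 445 fallen 57 (12.8%), with none called in the opposite direction. Of the 616 genes of clone c8, 446 (72.4%) passed in clone c6. Across the 13675 genes Pearson's r between the changes was 0.68 and Spearman's rho 0.32, a description over genes that are not independent.

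Leading genes of clone c6 had large changes in clone c8 too. In clone c8, COL3A1 had 4645 and 4922 at times 72 and 96, against 10.2, 32.1 and 43.4 at times 0, 4 and 8 (log2 6.83), and TNMD changed by 4.91 and TAGLN by 5.45. The smooth muscle list had 18 of 22 genes risen in each clone, and the collagens 11 of 16 in clone c6 and 9 of 16 in clone c8. At the shared times, in the same fit of both clones, 3 of 38 S phase genes fell in clone c6 and none in clone c8 (medians -0.34 and -0.01), while 15 had fallen in clone c6 with time 120 in its own fit. Cholesterol and fatty acid synthesis genes fell at the shared times in 6 of 20 cases in clone c6 and in 1 of 20 in clone c8 (medians -0.35 and 0.05). In that fit 835 of 13675 genes passed in clone c6 (580 higher and 255 lower). In clone c8 616 passed (480 higher, 3.51%, and 136 lower, 0.995%), so none of 38 in clone c8 was near the share of all genes. Of 38 genes of G2 and mitosis, 2 fell in clone c6 and 5 in clone c8 in the same fit (medians -0.38 and -0.17). None of these differences between lists was tested.

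**Figure D5:**
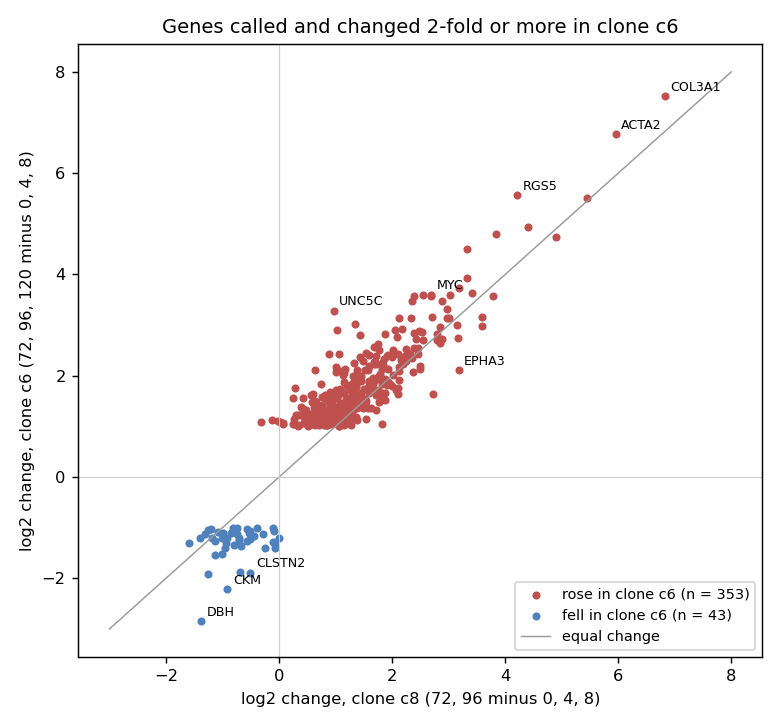
Log2 change of each gene that rose (red, n = 353) or fell (blue, n = 43) 2-fold or more in clone c6 (times 72, 96 and 120 minus 0, 4 and 8, vertical axis) against its change in clone c8 (72 and 96 minus 0, 4 and 8, horizontal axis); the line marks equal change. Most points lie right of 0 for risen genes, and UNC5C was larger in clone c6 and EPHA3 in clone c8.

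The difference between the clones was tested gene by gene at the 5 shared times, as the change of clone c6 minus that of clone c8. No gene passed by limma (0 of 13675, 0%, smallest adjusted p = 0.176). An unadjusted p under 0.05 was found for 1262 genes, where 684 are expected by chance. With the labelled time as a block 52 genes passed (32 higher and 20 lower), but whether the arrays of the clones pair by time is not stated. Without the block, the smallest p-values belonged to CHST2, a sulfotransferase (-1.11 ± 0.19), PCBP4, an RNA-binding protein (-1.44 ± 0.25), and HTR3A, a serotonin-gated channel (-1.28 ± 0.23). CHST2 had 687 and 544 in clone c6 at times 72 and 96, against 1511, 1355 and 1497 at times 0, 4 and 8, while clone c8 had 485 and 479, against 485, 481 and 613. Clone c8 thus began near the level at which clone c6 ended. HTR3A had 63.7 and 54.7 in clone c6, against 125, 114 and 109, and 90.0 and 69.9 in clone c8, against 59.8, 55.1 and 44.4, so that the clones moved in opposite directions.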

How the data were processed

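RNA of IMR32 clones was measured on 17 arrays, 9 of clone c6 and 8 of clone c8, of 54675 probe sets. The values deposited by the authors are linear probe set intensities. MAS5 and GCOS are named in the submitters' processing notes, and every array had the same 2% trimmed mean (100.01). The members of the comparison, the gene lists and the tests were chosen with earlier results of these data known.

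The platform annotation gave 1 symbol to 41097 probe sets, several to 1801 and none to 11777. Intensities were transformed as log2(value + 16), the probe set of highest mean stood for its gene, and genes were kept when that mean over the 17 arrays was at least 4.68, the 40th percentile over probe sets, which left 13675 of 19775. Tests used limma 3.58.1 in R 4.3.3 (lmFit and trended eBayes) and Benjamini-Hochberg adjustment at 0.05, and the script was tested on simulated data. The first comparison had 4 residual degrees of freedom, time 120 against 72 and 96 had 3, and the fit of both clones 6. Alternatives were to average probe sets, to leave out the trend or the filter, to filter at the 60th percentile, to add 1 or 64 in place of 16, to centre arrays on their median, to normalize by quantiles, to choose other times, to fit clone c6 with clone c8 at the shared times (chosen after seeing the data), to use the labelled time as a block and to leave out each array. At most 1.42% of values were equal between 2 arrays.

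Named genes were the 15 largest rises and 10 largest falls whose arrays did not overlap, up to 4 members of smallest p per list, genes fixed by name, the 3 largest of each course class and the 5 largest each way at time 120 and in the middle of the course, and the 3 of smallest p for the clone difference. Members that made up a count of 5 or fewer, and a few others given with their log2 change alone, were named after their values were seen.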

Additional observations from a re-analysis of the deposited data

How the results depend on the processing

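The number of genes that changed at times 72, 96 and 120 against 0, 4 and 8 was 1227. It was 679 to 1322 with 1 array left out, 679 without time 120 and 687 without time 96, and 758 when all 9 arrays of clone c6 entered the fit. The other 11 settings gave 835 to 1246, with 835 at the shared times in the fit of both clones, a setting chosen after seeing the data. For time 120 against 72 and 96 the count was 0, and 0 to 1 with 1 array left out (1 without time 96). For the clone difference it was 0, and 0 to 1 with 1 array left out (1 without time 96 of clone c6). With the labelled time as a replicate block it was 52 (32 higher and 20 lower). Across genes, same-time deviations of the clones correlated at 0.307 (time 0), 0.038 (time 4) and 0.394 (time 8). Times 72 and 96 share 1 value (0.0484), since 2 arrays lie in mirror image about their mean, so they cannot show which times pair. Whether the clones were handled together at each time is not stated, so the pairing was not taken as given, and these values do not decide between 0 and 52. For clone c8 the count was 616, and 308 to 798 with 1 array left out: 308 without its time 72, 403 without its time 96 and 405 without its time 4. Where fewer arrays entered, fewer residual degrees of freedom were left, and the cause of the other shifts was not tested. Of the 1227 genes called in clone c6, 3 changed sign with probe sets averaged and 0 of them passed there, and of the 616 of clone c8 1 changed sign with 1 added in place of 16 and did not pass. No other setting turned the sign of a called gene, though the split of a list could turn (G1 genes from time 0 alone). For the genes named, the first comparison stayed on the same side of the threshold in 2853 combinations of gene and setting, lost its call in 94 and gained one in 28. The calls lost most often were those of STC1 (11 of 18 settings), CCNA2 (10), MXI1 (9), CEBPB (8) and MKI67 (8). Leaving out an array that leaves 1 sample in a group assumes that it varies like the others. Dim genes are limited by background, since the added 16 sets much of their change.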

Other observations

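Of 20 measured genes of cholesterol and fatty acid synthesis, 9 fell and 1 rose in clone c6 at times 72, 96 and 120 against 0, 4 and 8, with a median log2 change of -0.32 against 0.01 over all genes tested, and 5 fell without time 4, without time 96 or without time 120, and 4 from time 0 alone. SCD, the desaturase that makes monounsaturated fatty acids, had 1918, 1639 and 1607 at times 72, 96 and 120, against 2879, 2938 and 3154 at times 0, 4 and 8 (log2 -0.79 ± 0.10, limma adjusted p = 0.000132). INSIG1, the sterol sensor, fell by 0.79 ± 0.12 and SREBF1, the factor that drives lipid synthesis genes, by 1.12 ± 0.17, while SC5D, a late enzyme of cholesterol synthesis, rose by 1.09 ± 0.13. INSIG1 had its highest array at time 48, with 394.

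Of 24 genes of glycolysis and the hypoxia response, the glycolytic enzymes ENO1 (-0.43 ± 0.09), PKM (-0.50 ± 0.09) and ALDOA (-0.50) fell, and the glucose transporter SLC2A1 (0.96 ± 0.18) and the vessel growth factor VEGFA (0.84 ± 0.13) rose. These were 12.5% fallen and 8.33% risen, against 3.25% and 5.72% of all genes tested. VEGFA had 158, 174 and 177 at times 72, 96 and 120, against 91.5, 84.6 and 86.2 at times 0, 4 and 8, without overlap. Its other probe sets, all dimmer, changed by only 0.16 to 0.20. Of 22 genes of the integrated stress response and amino acid synthesis, the serine enzyme PSAT1 (-0.54 ± 0.10), the cysteine enzyme CTH (-0.78 ± 0.15) and the factor CEBPB (-0.42 ± 0.11) fell, and ATF3 (0.65 ± 0.15), a stress-induced factor, rose. In this list 13.6% had fallen and 4.55% had risen. The calls of CEBPB (without any 1 of times 0, 72, 96 and 120) and ATF3 (without time 120) rested on single arrays. Of glycolysis genes 2 fell and 2 rose without time 96, without time 120 or from time 0 alone. In clone c8 none of the 24 glycolysis and 22 stress genes fell and 2 of each rose, and 1 of the 20 lipid genes fell. The medians were 0.06, 0.14 and 0.05. Of all genes tested 0.995% fell and 3.51% rose in clone c8, so counts of none fallen are near that share. Of the genes named here, SCD fell in clone c8 (-0.39, limma adjusted p = 0.0394), and SC5D (0.62), VEGFA (0.70), SLC2A1 (1.27) and ATF3 (0.79) rose (limma adjusted p from 0.00171 to 0.026), while INSIG1 (0.05), SREBF1 (-0.28), ENO1 (-0.02), PKM (0.03), PSAT1 (0.13), CTH (-0.04) and CEBPB (-0.27) did not pass there.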
